A study of Medicago truncatula with 160 samples.

Results

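Nodules of 2 lines of the barrel medic Medicago truncatula were compared: A17, the line whose genome serves as the reference of the species, and DZA, a line used here with the same set of bacteria. All plants were inoculated with a single strain of the nitrogen-fixing rhizobium Sinorhizobium meliloti (written Ensifer meliloti in the sample labels), and the same 20 natural strains were used on both lines, with 4 plants per strain and line. Every library labelled with genotype A17 or DZA belongs to the comparison, which gives all but 2 of the 160 libraries of the series, 79 per line, because 1 library labelled A17 with strain 89 (plant 3514) and 1 labelled DZA with strain 182 (plant 3406) expressed the accessory genes of another strain and were left out. The labels name no transgene, mutation or treatment other than the strain for either line, and each line stands for 1 genotype, so a difference belongs to these 2 lines. Of 49928 M. truncatula genes in the table, 40645 were tested. A difference is given throughout as the log2 fold change of DZA over A17, so that positive values are higher in DZA, and levels are given in CPM, plant counts scaled to a common library total with the trimmed mean of M-values (TMM).

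A nodule forms when bacterial Nod factors are recognised by receptor kinases of the root, a calcium signal is decoded in the nucleus and the transcription factor NIN starts both infection and organ formation. Bacteria then travel through infection threads and are released into plant cells, where they are enclosed by a plant membrane as symbiosomes and differentiate into nitrogen-fixing bacteroids, a step that in Medicago depends on nodule-specific cysteine-rich (NCR) peptides. The plant holds back its defences in the infected cells, keeps free oxygen low with leghemoglobin, and supplies sugars, iron, zinc, molybdenum and phosphate to the bacteroids. In whole nodules, fewer cells of a type and less RNA per cell cannot be told apart.

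The reads of both lines were mapped to the A17 genome. A gene that is absent from DZA or has diverged there therefore reads as low in DZA, and for any single gene this cannot be told apart from weaker transcription. Libraries held between 28474905 and 75617864 counts in all, of which the plant part was 2282942 to 58439685 (median 34817726) in A17 and 6526597 to 58578353 (median 31328959) in DZA. The line labels were checked with genes chosen in the other strains: A17 libraries held at least 77.4% of 61 or 62 A17-specific genes and DZA libraries at most 1.64%, whereas the 3 or 7 DZA-specific genes were too few for a firm check, with at least 66.7% of them held by DZA libraries and up to 42.9% by A17 libraries. In 20 libraries (7 of A17 and 13 of DZA) the plant profile stood apart: the gene MtrunA17_Chr1g0199121, at no more than 11.4 CPM in the other 138 libraries, was at 2840 CPM or more, and S. meliloti genes took 50% to 96.3% of all counts (median 71.4%, against 26.2% in the other libraries). One of these, an A17 plant with strain 216, had 96.3% S. meliloti counts and gave the lowest A17 value of many nodule genes. In 5 libraries (4 of A17, 1 of DZA) between 56.5% and 78.7% of the accessory genes matched the labelled strain. These libraries were kept.

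The 2 lines differed in the level of a large part of the plant genes. At an adjusted p under 0.05, 22285 of 40645 genes (54.8%) were called, 10520 higher in DZA (25.9%) and 11765 higher in A17 (28.9%), and 9596 (23.6%) were called with a change of at least 2-fold, 4379 higher in DZA (10.8%) and 5217 higher in A17 (12.8%). Of these 9596 genes, 4380 differed in the same direction with all 20 strains and 6384 with at least 18. Changes of 8-fold or more were found for 2206 genes higher in A17 and 667 higher in DZA. The median log2 fold change over all tested genes was 0.059. Without the 20 libraries that stood apart, 10385 genes were higher in DZA and 11719 in A17.

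**Figure D1:**
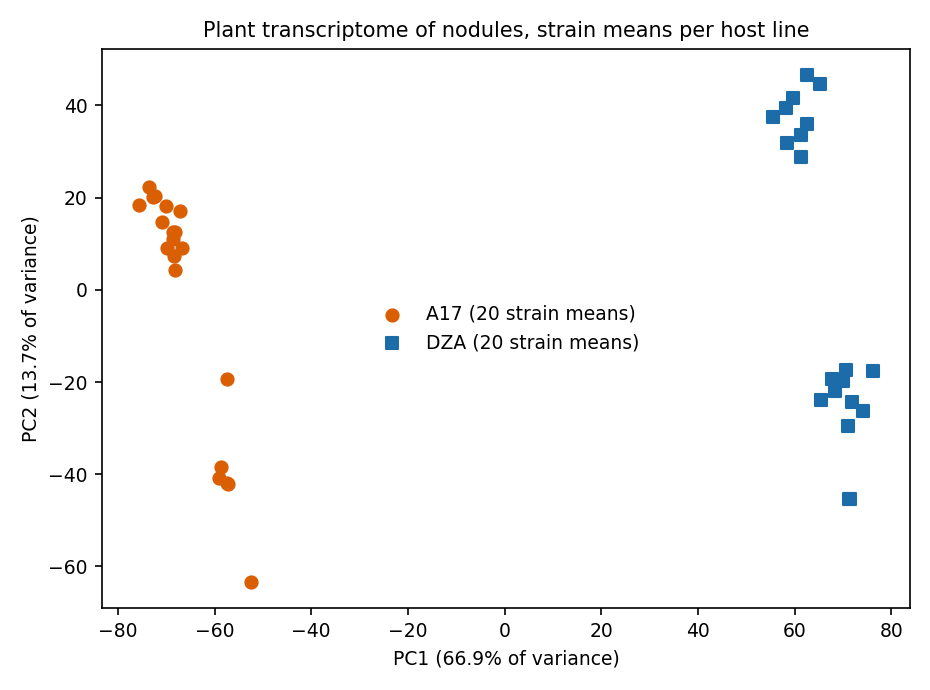
Principal component analysis of log2(CPM + 0.5) over the 5000 most variable plant genes, with 1 point per strain mean (20 for A17 as circles, 20 for DZA as squares). The horizontal axis (PC1, 66.9% of the variance) separates the lines with no overlap, and the vertical axis (PC2, 13.7%) splits each line into 2 groups.

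In the plot of the first principal components, A17 strain means lay between -75.6 and -52.4 on PC1 and DZA strain means between 55.5 and 76.2. The split along PC2 followed the libraries that stood apart. The 6 A17 and 11 DZA strain means that include such a library lay between -63.5 and -17.5 on PC2, and the other 14 A17 and 9 DZA strain means between 4.4 and 46.7. Line accounted for 52.6% of the summed variance of all genes and strain for 24.6%. By gene, the median share of variance was 12.1% between lines and 39.3% between strains, and 40.4% was left with neither. Strains were far more numerous than lines, so noise alone gives strain a larger share than line. The median strain share was no larger than the share left, so these medians cannot rank strain above line for a typical gene. The line took most of the variance for 7643 genes (18.8%), and the strain did so for 8862 genes (21.8%), a count with the same limit.

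Large differences lay mostly in genes of low level. At least 2-fold differences were called for 28.7% of genes under 1 CPM in the higher line, 23.9% of those from 1 to 10 CPM, 12.3% from 10 to 100 CPM and 12.9% over 100 CPM. The median level in the higher line was 0.907 CPM for genes at least 2-fold higher in A17 and 0.608 CPM for those at least 2-fold higher in DZA. Over 100 CPM, 68 genes were at least 2-fold higher in A17 and 33 in DZA.

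Differences between the lines at known symbiosis genes were mostly small. The study names 59 of them by symbol, and all 59 passed the low-count filter. Of these, 14 were called higher in DZA and 16 higher in A17, which is 50.8% against 54.8% of all genes. A change of 2-fold or more was called for 4, 2 in each direction (against 23.6% of all genes). That share of all genes was 28.7% under 1 CPM in the higher line, 12.3% from 10 to 100 CPM and 12.9% over 100 CPM. The symbiosis genes were not set against genes of matched level. Under the 3 other scalings, 13 to 21 were called higher in DZA and 14 or 15 higher in A17, so that which line had more calls depended on the scaling. Their median log2 fold change was 0.0008. The libraries of the 2 lines overlapped for each of the 59, as they did for all but 302 of the 40645 genes tested. Of the 59, 7 were called with the same direction in all 20 strains, as were 5714 of the 40645 genes tested. For 41 of the 59, the plant with 96.3% S. meliloti counts had the lowest A17 value, ties included. That plant did so for 13178 of the 40645 genes tested.

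**Figure D2:**
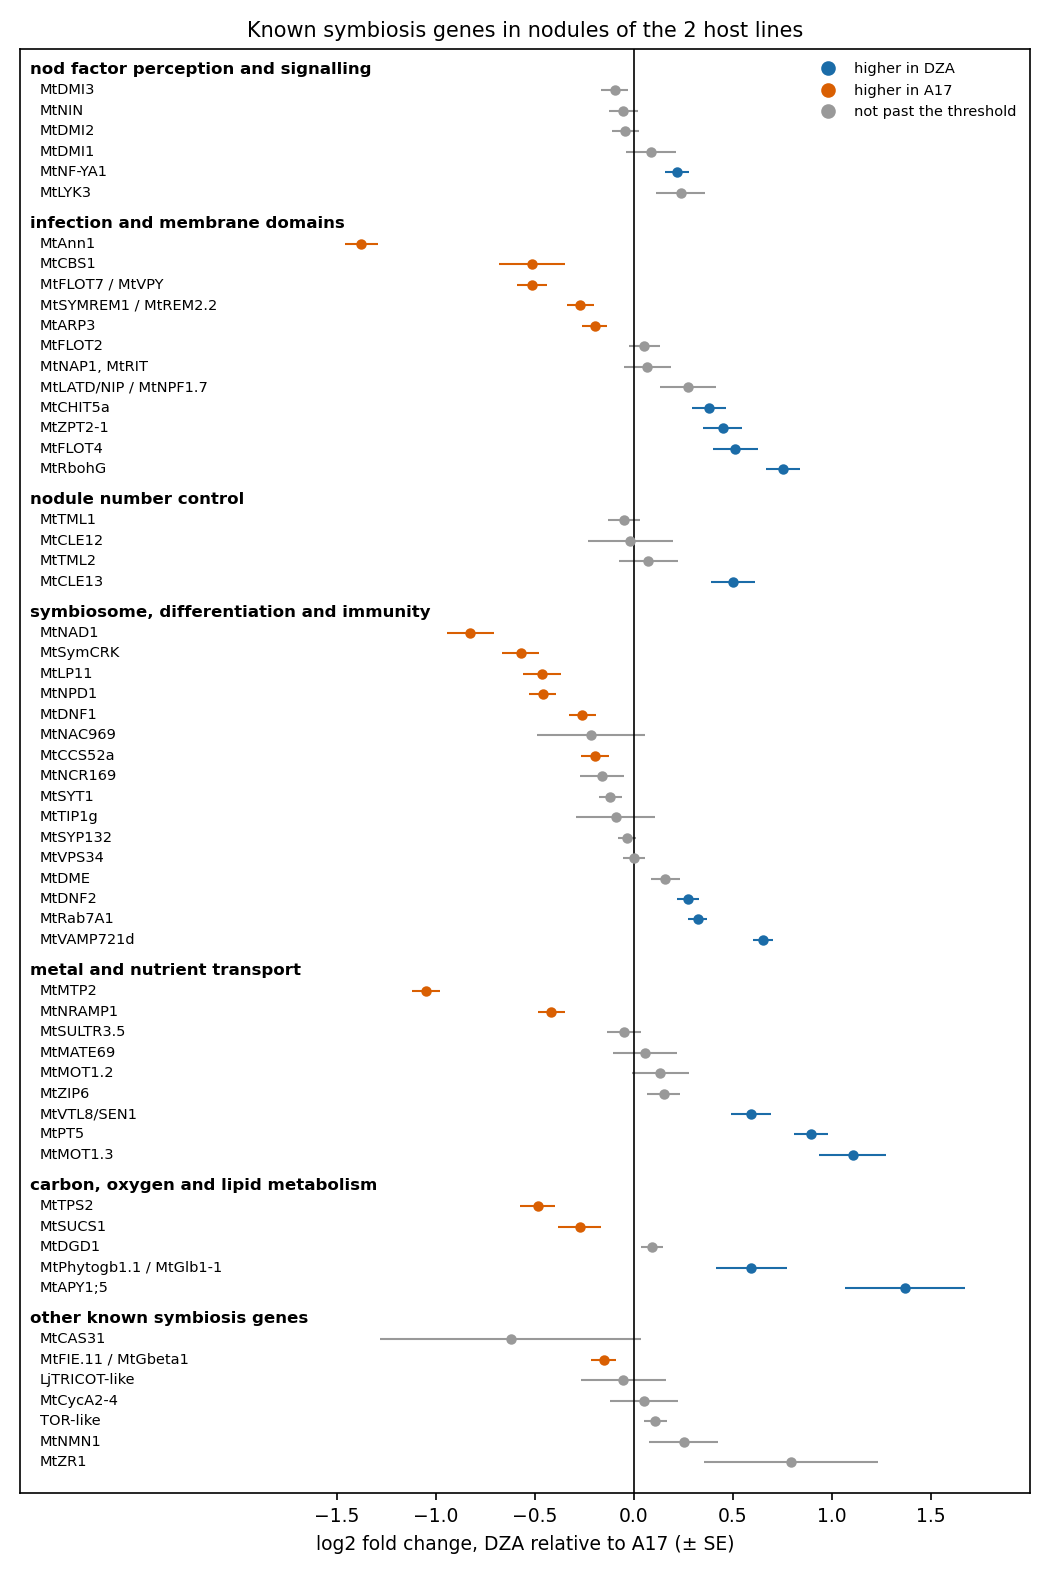
Log2 fold change of DZA over A17 (points, with bars of ± 1 SE) for the 59 known symbiosis genes that have a symbol, grouped by role. Blue marks genes called higher in DZA, orange genes called higher in A17 and grey genes that did not pass the test, with MtAnn1 at -1.38 and MtAPY1;5 at 1.37 as the extremes among those called.

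Defining nodule markers were present in both lines. MtNIN, the transcription factor that starts nodule formation, ranged from 16.1 to 269 CPM in the A17 libraries (median 189.9) and from 71.1 to 299 CPM in the DZA libraries (median 185). The lines overlapped almost fully, and the difference did not pass the test (log2 fold change -0.055 ± 0.073, SE, adjusted p = 0.54). Leghemoglobin genes, taken as the 9 genes with the term oxygen carrier activity, a term that the study itself picked on its DZA libraries, divided between the lines. The gene MtrunA17_Chr1g0148751 was at 3915 ± 667 CPM in A17 and 2701 ± 812 CPM in DZA (SD, n = 20 strain means in this and all following values), a log2 fold change of -0.60 ± 0.11 (adjusted p = 4.0e-05), and was higher in A17 with 15 of 20 strains. MtrunA17_Chr5g0435621 went the other way, at 528 ± 125 CPM in A17 and 792 ± 200.2 CPM in DZA (log2 fold change 0.56 ± 0.097, adjusted p = 2.2e-05), higher in DZA with 18 strains. MtrunA17_Chr1g0170851 (0.52 ± 0.087) and MtrunA17_Chr1g0197531 (0.47 ± 0.098) were also higher in DZA, with adjusted p of 1.4e-05 and 2.5e-04. The remaining 5 genes of the term, between -0.11 and 0.28, did not pass the test. The gene at 0.28, MtrunA17_Chr4g0034311, was low, at 0.66 CPM in A17 and 0.788 CPM in DZA. The term alone does not show that it encodes a leghemoglobin. With the other scalings, 3 to 6 of the 9 were called higher in DZA, and without the 20 libraries that stood apart 5 were. Leghemoglobins are close relatives of one another, so reads may have been divided unevenly among copies and values of single genes are uncertain.

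In the pathway that perceives Nod factors, 1 of 6 genes was called (16.7%, against 54.8% of all genes). MtNF-YA1, a subunit of the CCAAT-binding factor that acts with NIN in the nodule primordium, ranged from 8.21 to 116 CPM in the A17 libraries (median 66.1) and from 22.6 to 134 CPM in the DZA libraries (median 76.4). It was slightly higher in DZA, with a log2 fold change of 0.22 ± 0.060 (adjusted p = 0.0032) and the same direction with 17 strains. Under the 3 other scalings tried, 0 to 2 genes of the list were called higher in DZA. The receptor kinase genes MtLYK3 (0.24) and MtDMI2 (-0.043), the nuclear cation channel gene MtDMI1 (0.086) and MtDMI3 (-0.097), which encodes the kinase that reads the calcium signal, did not pass the test.

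Genes of infection and of membrane domains moved in both directions. Of 12 genes, 4 were called higher in DZA and 5 higher in A17 (75% called, against 54.8% of all genes), and the median log2 fold change was 0.060. MtAnn1, an annexin that binds calcium and is induced by Nod factors, ranged from 3.31 to 56.4 CPM in the A17 libraries (median 25.8) and from 3.2 to 22.3 CPM in the DZA libraries (median 9.14). The ranges overlapped in their lower part, but A17 was higher with each of the 20 strains, with means of 26.9 ± 4.31 CPM in A17 and 10.2 ± 1.71 CPM in DZA (log2 fold change -1.38 ± 0.084, adjusted p = 3.3e-13, 2.6-fold). MtRbohG, an NADPH oxidase that produces reactive oxygen species in nodules, lay between 50.03 and 532 CPM in DZA, with a median of 249.8, against 10.54 to 312 CPM and a median of 140.4 in A17. DZA was higher with each strain, with means of 147 ± 24.8 CPM in A17 and 252 ± 46.7 CPM in DZA (log2 fold change 0.75 ± 0.086, adjusted p = 5.3e-08).

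MtVPY, which encodes vapyrin, a protein needed for infection threads to grow, ranged from 8.4 to 141 CPM in the A17 libraries (median 64.8) and from 12.7 to 104 CPM in the DZA libraries (median 46.5). It was higher in A17 with 19 strains (log2 fold change -0.51 ± 0.076, adjusted p = 2.9e-06). MtSYMREM1, a remorin of the infection thread membrane, was lower in DZA by a smaller margin (-0.27 ± 0.068, adjusted p = 0.0016), and so was MtARP3, a subunit of the actin-nucleating ARP2/3 complex (-0.20 ± 0.062, adjusted p = 0.0088). MtCBS1, at 0.599 and 0.421 CPM in A17 and DZA, was low throughout, and its call (-0.52 ± 0.17, adjusted p = 0.011) was lost when plant 2 or plant 3 of every strain was left out. On the DZA side stood the flotillin gene MtFLOT4 (0.51 ± 0.11, adjusted p = 4.2e-04), the zinc finger transcription factor gene MtZPT2-1 (0.45 ± 0.10, adjusted p = 4.9e-04) and the chitinase gene MtCHIT5a (0.38 ± 0.084, adjusted p = 4.5e-04). MtFLOT2, whose identifier neighbours that of MtFLOT4, did not pass (0.052 ± 0.077, adjusted p = 0.58), nor did MtLATD/NIP (0.27 ± 0.14) and MtNAP1 (0.068 ± 0.12).

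**Figure D3:**
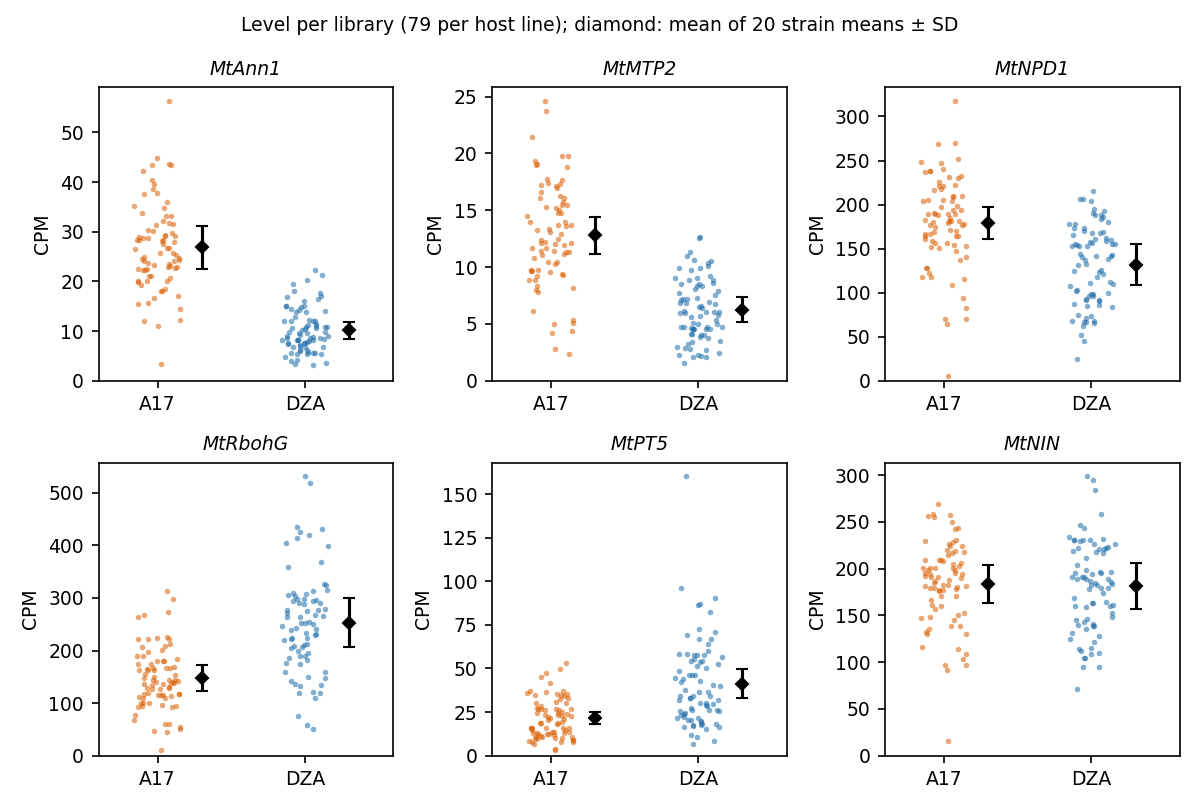
Level in CPM of 6 symbiosis genes in each of the 79 A17 and 79 DZA libraries (dots), with the mean ± SD of the 20 strain means (diamonds). MtAnn1, MtMTP2 and MtNPD1 were lower in DZA and MtRbohG and MtPT5 higher, while MtNIN had means of 184 CPM in A17 and 181 CPM in DZA.

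Among 4 genes that control nodule number, 1 was called (25%, against 54.8% of all genes). This was MtCLE13, a peptide made in young nodules that represses further nodulation through the shoot. It ranged from 0 to 4.58 CPM in the A17 libraries (median 1.96) and from 0.473 to 5.5 CPM in the DZA libraries (median 2.85). The means of 2.04 ± 0.592 CPM in A17 and 2.86 ± 0.629 CPM in DZA gave a log2 fold change of 0.50 ± 0.11 (adjusted p = 4.1e-04), and DZA was higher with 19 strains. The related peptide gene MtCLE12 (-0.017 ± 0.21) and the F-box genes MtTML1 (-0.051 ± 0.082) and MtTML2 (0.073 ± 0.15), which act in the root after the shoot has responded, did not pass.

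Of 16 genes for symbiosomes, bacteroid differentiation and immunity, 6 were called higher in A17 and 3 higher in DZA (28.9% and 25.9% of all genes), with a median log2 fold change of -0.14. MtNAD1, which keeps defence responses down in infected cells, ranged from 0.301 to 45.8 CPM in the A17 libraries (median 12.7) and from 0 to 21.2 CPM in the DZA libraries (median 7.11). It was higher in A17 with 19 strains, with means of 14.1 ± 3.42 CPM in A17 and 7.94 ± 2.13 CPM in DZA (log2 fold change -0.83 ± 0.12, adjusted p = 1.8e-06). MtSymCRK, a cysteine-rich receptor-like kinase that also restrains defence, was at 114 ± 16.8 CPM in A17 and 78 ± 19 CPM in DZA (-0.57 ± 0.093, adjusted p = 1.1e-05). MtDNF2, a phospholipase C-like gene with the same known role, moved the opposite way and was slightly higher in DZA, at 67.1 ± 7.24 CPM in A17 and 86 ± 13.5 CPM in DZA (0.27 ± 0.056, adjusted p = 2.0e-04).

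MtNPD1, a nodule-specific gene that encodes a PLAT domain protein, ranged from 5.34 to 317 CPM in the A17 libraries (median 182) and from 25.1 to 216 CPM in the DZA libraries (median 139). The ranges overlapped widely, but A17 was higher with all 20 strains, with means of 179 ± 17.8 CPM in A17 and 131.5 ± 23.4 CPM in DZA (log2 fold change -0.46 ± 0.068, adjusted p = 3.2e-06). MtDNF1, a subunit of the signal peptidase complex that processes NCR peptides, was at 61.3 ± 6.71 CPM in A17 and 52.2 ± 7.48 CPM in DZA (-0.26 ± 0.068, adjusted p = 0.0020). MtNCR169, an NCR peptide needed for bacteroid differentiation, ranged from 2.03 to 299.8 CPM in the A17 libraries (median 105) and from 8.38 to 312 CPM in the DZA libraries (median 66.5). The ranges were similar in both lines, and its difference of -0.16 ± 0.11 did not pass (adjusted p = 0.22). MtCCS52a, a cell cycle regulator that drives the enlargement of infected cells (-0.19 ± 0.071, adjusted p = 0.023), and MtLP11 (-0.46 ± 0.096, adjusted p = 2.3e-04) were also higher in A17.

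Of the vesicle traffic genes, MtVAMP721d, a SNARE protein of the exocytosis route that forms the symbiosome membrane, lay between 8.25 and 37.6 CPM in DZA, with a median of 19.1, against 2.88 to 18.6 CPM and a median of 13.3 in A17. DZA was higher with every strain, with means of 12.9 ± 1.39 CPM in A17 and 20.1 ± 2.51 CPM in DZA (log2 fold change 0.65 ± 0.050, adjusted p = 3.6e-11). MtRab7A1, a small GTPase that symbiosomes carry when mature, was higher in DZA with 18 strains (0.32 ± 0.050, adjusted p = 5.7e-06). The syntaxin gene MtSYP132 (-0.036 ± 0.046), MtVPS34 (0.00079 ± 0.056) and the synaptotagmin gene MtSYT1 (-0.12 ± 0.060) did not pass.

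In metal and nutrient transport, 3 of 9 genes were called higher in DZA and 2 higher in A17, with a median of 0.13. The share called was 55.6%, near the 54.8% of all genes. MtMTP2, which carries zinc into internal membrane compartments, ranged from 2.32 to 24.6 CPM in the A17 libraries (median 12.4) and from 1.52 to 12.6 CPM in the DZA libraries (median 6). A17 was higher with all 20 strains, with means of 12.8 ± 1.64 CPM in A17 and 6.25 ± 1.1 CPM in DZA (log2 fold change -1.05 ± 0.070, adjusted p = 2.2e-12, 2.07-fold). MtPT5, a phosphate transporter, lay between 6.81 and 160.3 CPM in DZA, with a median of 34.4, against 3.19 to 53 CPM and a median of 19.5 in A17. DZA was higher with all 20 strains, with means of 21.5 ± 3.37 CPM in A17 and 41.3 ± 8.32 CPM in DZA (0.90 ± 0.088, adjusted p = 3.4e-09). MtMOT1.3, which takes molybdate into nodule cells, was higher in DZA with 18 strains, at 10.8 ± 2.69 CPM in A17 and 21.8 ± 9.84 CPM in DZA (1.1 ± 0.17, adjusted p = 6.9e-06).

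The iron transporters divided between the lines. MtVTL8/SEN1, which delivers iron towards bacteroids, lay between 12.1 and 265 CPM in DZA, with a median of 92.3, against 3.58 to 158.5 CPM and a median of 70.5 in A17, with means of 67.4 ± 14.6 CPM in A17 and 102 ± 37 CPM in DZA (0.59 ± 0.10, adjusted p = 2.2e-05, higher in DZA with 15 strains). MtNRAMP1, which takes up iron into infected cells, was at 9.73 ± 1.02 CPM in A17 and 7.39 ± 1.04 CPM in DZA (-0.42 ± 0.067, adjusted p = 8.9e-06, higher in A17 with 19 strains). The zinc transporter gene MtZIP6 (0.15 ± 0.083), the sulfate transporter gene MtSULTR3.5 (-0.050 ± 0.086), MtMOT1.2 (0.13 ± 0.15) and MtMATE69 (0.057 ± 0.16) did not pass.

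In carbon, oxygen and lipid metabolism, 2 of 5 genes were called in each direction (80% called, against 54.8% of all genes). MtAPY1;5, an apyrase, lay between 0 and 6.92 CPM in DZA, with a median of 1.76, against 0 to 5.61 CPM and a median of 0.395 in A17. Most libraries of both lines were low, but DZA was higher with all 20 strains (1.37 ± 0.30, adjusted p = 5.6e-04). MtPhytogb1.1, a phytoglobin that scavenges nitric oxide, was at 13.6 ± 4.81 CPM in A17 and 21.9 ± 10.1 CPM in DZA (0.59 ± 0.18, adjusted p = 0.0077). MtSUCS1, the sucrose synthase that opens the supply of sugar to the nodule, was at 2385 ± 338 CPM in A17 and 2175 ± 559 CPM in DZA (-0.27 ± 0.11, adjusted p = 0.037, higher in A17 with 12 strains), and MtTPS2 at 49.9 ± 7.97 CPM in A17 and 40.3 ± 8.75 CPM in DZA (-0.48 ± 0.089, adjusted p = 5.3e-05). Of 7 other named symbiosis genes, MtGbeta1 alone was called (-0.15 ± 0.064, adjusted p = 0.046), and under each of the 3 other scalings that call was lost. MtCAS31, a dehydrin, ranged from 0 to 243 CPM in A17 and from 0 to 197 CPM in DZA and did not pass (-0.62 ± 0.66, adjusted p = 0.44). Among 25 further symbiosis genes that the study lists without a symbol, 4 were higher in DZA and 6 higher in A17 (40% called, against 54.8% of all genes).

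Genes of 9 gene ontology terms were also followed. The study chose these terms on the DZA libraries of this series, so their members are not independent of the DZA values. Over all genes, 54.8% were called, 25.9% higher in DZA and 28.9% higher in A17. Acid phosphatase activity, the term of enzymes that release phosphate from organic compounds, had 4 of 15 genes higher in DZA and 4 higher in A17. This is 53.3% called, near the share of all genes, and 6 of the 8 differed by 2-fold or more. MtrunA17_Chr8g0375921 ranged from 0 to 2.92 CPM in the A17 libraries (median 0.348) and from 1.55 to 21.1 CPM in the DZA libraries (median 5.26). The ranges overlapped, and DZA was higher with all 20 strains (log2 fold change 3.85 ± 0.27, adjusted p = 1.8e-11). MtrunA17_Chr6g0453731 ranged from 0.901 to 55.2 CPM in the A17 libraries (median 12.8) and from 0 to 19.5 CPM in the DZA libraries (median 2.91), and A17 was higher with all 20 strains (-2.65 ± 0.43, adjusted p = 1.9e-05). MtrunA17_Chr8g0393271, which also carries the term ferric iron binding, was at 15 ± 5.59 CPM in A17 and 4.73 ± 2.77 CPM in DZA (-1.87 ± 0.21, adjusted p = 7.5e-08). Ferric iron binding had 3 of 7 genes higher in A17 and none called higher in DZA, where 4 did not pass.

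All 3 genes of nitrate transmembrane transport were called. MtrunA17_Chr8g0368421 lay between 0.665 and 107 CPM in DZA, with a median of 13.6, against 0 to 59.98 CPM and a median of 3 in A17. DZA was higher with 18 strains (1.89 ± 0.39, adjusted p = 2.8e-04). MtrunA17_Chr4g0028541 and MtrunA17_Chr4g0028551 have adjoining identifiers and moved in opposite directions, the first at 4.26 ± 2.75 CPM in A17 and 2.06 ± 1.01 CPM in DZA (-1.18 ± 0.25, adjusted p = 2.8e-04) and the second at 1.78 ± 0.662 CPM in A17 and 4.22 ± 2.1 CPM in DZA (1.27 ± 0.16, adjusted p = 2.3e-07). If these neighbours are near-identical copies, reads could have been assigned to the wrong one, so their values are uncertain.

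Genes for peroxidase activity were called in 7 of 9 cases (77.8%, against 54.8% of all genes), 4 higher in DZA and 3 higher in A17. With the plain sum of plant counts as library size, 2 were higher in DZA. MtrunA17_Chr3g0128061 was at 18.9 ± 4.06 CPM in A17 and 34.6 ± 6.62 CPM in DZA (0.74 ± 0.10, adjusted p = 1.4e-06, all 20 strains), and MtrunA17_Chr5g0402571 at 3.39 ± 1.25 CPM in A17 and 1.45 ± 1.06 CPM in DZA (-1.63 ± 0.20, adjusted p = 1.9e-07, higher in A17 with 19 strains). Of 4 auxin biosynthesis genes, MtrunA17_Chr8g0391811 was higher in DZA with all 20 strains, at 2.2 ± 0.464 CPM in A17 and 5.83 ± 1.74 CPM in DZA (1.34 ± 0.087, adjusted p = 1.2e-12), and MtrunA17_Chr8g0353111 was higher in A17 with all 20, at 3.53 ± 0.718 CPM in A17 and 2 ± 0.561 CPM in DZA (-0.88 ± 0.12, adjusted p = 9.6e-07). Of 4 cytokinin signalling genes, 2 were called higher in A17, both by under 0.32 on the log2 scale. Autophagy had 1 of 7 genes higher in DZA, MtrunA17_Chr4g0024721, at 7.39 ± 0.956 CPM in A17 and 14.8 ± 2.5 CPM in DZA (0.90 ± 0.075, adjusted p = 1.5e-10, all 20 strains), and 2 higher in A17. Of 6 genes of systemic acquired resistance, a whole-plant defence state, 1 was higher in DZA, MtrunA17_Chr8g0368861, at 0.288 ± 0.133 CPM in A17 and 0.956 ± 0.705 CPM in DZA (1.89 ± 0.21, adjusted p = 3.5e-08), and 2 were higher in A17.

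Outside the symbiosis lists, few genes with a product name met the demand of the same direction with all 20 strains and at least 10 CPM in the higher line. An elongation factor 1-alpha gene, MtrunA17_Chr1g0200071, which encodes a part of the translation machinery, ranged from 6.1 to 30.9 CPM in the A17 libraries (median 19.3) and from 0.855 to 12.4 CPM in the DZA libraries (median 3.5). The ranges overlapped between 6.10 and 12.4 CPM (-2.64 ± 0.092, adjusted p = 4.2e-18, 6.22-fold higher in A17), although this gene has close copies among which reads may be divided. On the DZA side stood an alcohol dehydrogenase 1 gene, MtrunA17_Chr3g0125911, an enzyme of fermentation, at 101 ± 21.1 CPM in A17 and 188 ± 73.2 CPM in DZA (0.80 ± 0.13, adjusted p = 1.3e-05), and a NIT4B nitrilase gene, MtrunA17_Chr4g0026041, at 6.9 ± 0.98 CPM in A17 and 12.9 ± 1.83 CPM in DZA (0.81 ± 0.068, adjusted p = 1.6e-10).

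Transcripts of the plastid genome were higher in A17 as a group. Of 110 plastid genes tested, 71 were called higher in A17 and 1 higher in DZA. Over all genes, 28.9% were called higher in A17 and 25.9% higher in DZA. The median log2 fold change of the plastid genes was -0.33 beside 0.059 for all genes. Under the other scalings tried, 70 or 71 were called higher in A17. Plastid cytochrome b6, MtrunA17_CPg0492671, ranged from 103 to 315 CPM in the A17 libraries (median 204) and from 52.2 to 268 CPM in the DZA libraries (median 145), and A17 was higher with all 20 strains (-0.52 ± 0.053, adjusted p = 6.6e-09). Plastid genes took 0.995% ± 0.127 (SD, n = 20 strain means) of the plant counts in A17 and 0.826% ± 0.0866 in DZA, higher in A17 with 17 of 20 strains (paired permutation test over strains, two-sided, p = 8e-05). When the 10 most abundant plant rows were taken out of the total, the shares were 1.87% and 1.67% and the difference did not pass (p = 0.083). The library preparation selected polyadenylated RNA, which plastid and mitochondrial transcripts mostly lack, so these shares are not their abundance in the nodule.

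Mitochondrial genes took 3.01% ± 0.238 in A17 and 2.71% ± 0.184 in DZA (17 of 20 strains, permutation p = 1e-04), and likewise did not pass without the 10 most abundant rows (p = 0.082). By gene, 40 of 188 mitochondrial genes were higher in DZA and 47 higher in A17 (46.3% called, against 54.8% of all genes). With the other scalings 26 to 64 were higher in DZA and 37 to 48 higher in A17, so the line with more calls depended on the scaling. A nuclear copy of cytochrome c oxidase subunit 3, MtrunA17_Chr3g0094961, was at 633 ± 64.5 CPM in A17 and 403 ± 43.2 CPM in DZA (-0.60 ± 0.051, adjusted p = 2.4e-10), while the mitochondrial gene itself, MtrunA17_MTg0491471, was at 17.1 and 28.6 CPM in A17 and DZA (0.97 ± 0.45, adjusted p = 0.074). Reads of these copies cannot be told apart with certainty, so both values are uncertain. Markers of green tissue, 3 nuclear genes for chlorophyll a-b binding proteins, were near 0 in both lines, with means of 0.552 to 0.744 CPM in A17 and 0.258 to 0.438 CPM in DZA. All 3 were called higher in A17 (log2 fold changes -1.34, -1.16 and -0.91). The part of green tissue in the plastid difference was not tested. S. meliloti genes took 31.6% ± 6.72 of all counts in A17 and 36.0% ± 11.3 in DZA, a difference of 4.33 percentage points that did not pass (permutation p = 0.23), with DZA higher for 13 of 20 strains. It was 1.87 points (p = 0.42) without the 20 libraries that stood apart and 6.67 points (p = 0.11) without the 5 of mixed strain profile, by the same permutation test. The selection of polyadenylated RNA limits the S. meliloti share too. It is a share of counts and not the amount of bacteria in the nodule.

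A set of plant genes had reads in 1 line and almost none in the other. With at least 10 CPM in 1 line and at most 0.1 CPM in the other, 54 genes were nearly silent in DZA and 4 in A17. Without the 20 libraries that stood apart the counts were 63 and 7. The 54 had a median of 19.3 CPM in A17, and none of them has a symbol or product name in the lists used here. MtrunA17_Chr2g0318931 ranged from 7.33 to 425 CPM in the A17 libraries (median 113) and from 0 to 0.495 CPM in the DZA libraries (median 0), so no library of the 2 lines overlapped. MtrunA17_Chr5g0421851 ranged from 0.151 to 46.2 CPM in the A17 libraries (median 22) and from 0 to 0.0533 CPM in the DZA libraries (median 0), again with no overlap. In the other direction, MtrunA17_Chr2g0332331 ranged from 0 to 1.47 CPM in the A17 libraries (median 0) and from 7.46 to 48.4 CPM in the DZA libraries (median 20.6). MtrunA17_Chr7g0221831, with an A17 mean of 0.195 CPM, was above that limit and ranged from 0 to 7.6 CPM in the A17 libraries (median 0) and from 0 to 47 CPM in the DZA libraries (median 12.9), where the lines overlapped. Over all genes, the libraries of the 2 lines were fully separated for 248 genes higher in A17 (0.610%) and 54 higher in DZA (0.133%).

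Of the 54 and the 4 genes, 0 lacked counts in every library of the line in which they were low. Counts of 0 in every library of a line were therefore sought at a lower limit, 1 CPM in the other line. Of the genes with at least 1 CPM in A17, 31 had no count in any DZA library, and the limit of 3 counts over the 79 DZA libraries is 0.00106 CPM, so these genes were at least 987-fold higher in A17. This limit covers counting error only. One gene had no count in any A17 library and a mean of 4.82 CPM in DZA (MtrunA17_Chr4g0015871, annotated as cytochrome b6). It ranged from 0 to 35.2 CPM in the DZA libraries with a median of 0, so most DZA libraries had no count either.

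**Figure D4:**
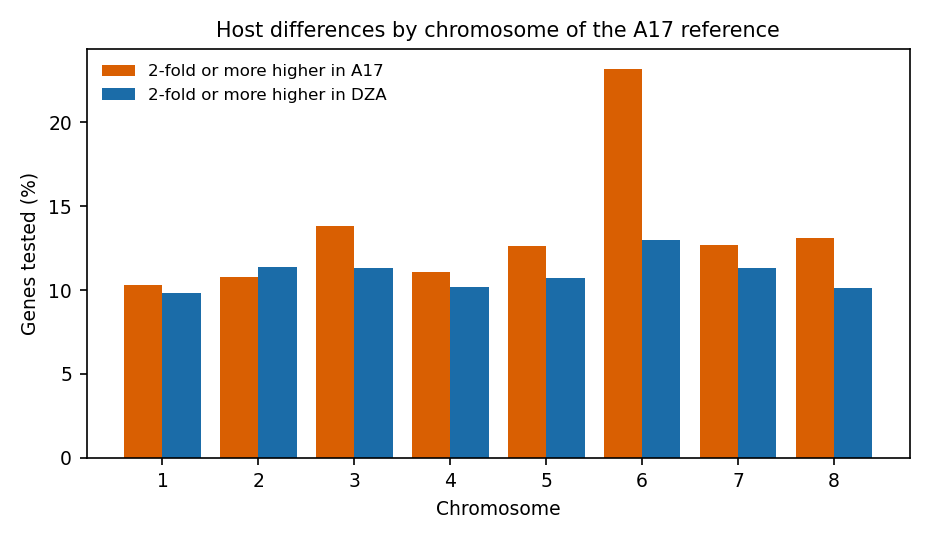
Share of tested genes (%) on each of the 8 chromosomes that were called at least 2-fold higher in A17 (orange) or in DZA (blue). Chromosome 6 stood at 23.2% higher in A17, against 10.3% to 13.8% on the others, and at 13.0% higher in DZA, against 9.82% to 11.4%.

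Genes that differed by 2-fold or more were unevenly spread over the A17 reference. On chromosome 6, 36.2% of 3124 tested genes differed by 2-fold or more, against 20.1% to 25.1% on the 7 other chromosomes. Of the 5217 genes at least 2-fold higher in A17, 1583 lay in runs of 3 or more neighbouring tested genes, as did 661 of the 4379 higher in DZA, so most lay outside such runs. The longest unbroken run held 29 tested genes on chromosome 8, from MtrunA17_Chr8g0356511 to MtrunA17_Chr8g0356951, all at least 2-fold higher in A17 and 28 of them by 8-fold or more. Their median log2 fold change was -6.07, and their levels were 0.0486 to 128 CPM in A17 and 0 to 2.21 CPM in DZA. A run of 17 genes on chromosome 6 (MtrunA17_Chr6g0458621 to MtrunA17_Chr6g0458851) had a median of -5.30, a run of 13 on chromosome 3 (MtrunA17_Chr3g0097341 to MtrunA17_Chr3g0097521) a median of -6.08, and another of 11 on chromosome 6 (MtrunA17_Chr6g0480081 to MtrunA17_Chr6g0480201) a median of -7.69. The longest run of genes higher in DZA held 8 genes. With a single reference, segments that DZA lacks cannot be told apart from genes that are not transcribed there.

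Whether the difference between the lines depended on the strain was tested with 1 value per plant. Of 37658 genes, 310 (0.823%) had a line-by-strain interaction at an adjusted p under 0.05, and 161 of the 310 also differed between the lines on average. In 155 of them the strains included both a difference of more than 2-fold towards A17 and 1 of more than 2-fold towards DZA. The strain farthest from the median difference was 746B for 65 genes, 89 for 47 and 25B for 26. In DZA, the S. meliloti share of counts was 49.5% with strain 746B, 51.0% with 89 and 53.7% with 25B, against 36.0% over all strains. Strain 31 had the highest share in DZA (57.7%) and strain 182 one of the lowest (20.3%), and each was farthest for 20 genes. The part of this share in the interaction was not tested. Without the 20 libraries that stood apart, 256 genes were called, but the count fell to 71, 57 or 94 when plant 1, 2 or 3 of every strain and line was left out and to 101 with library size taken as the plain sum of plant counts. The interaction was not refitted without the 5 libraries of mixed strain profile, so their part in these calls was not tested.

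**Figure D5:**
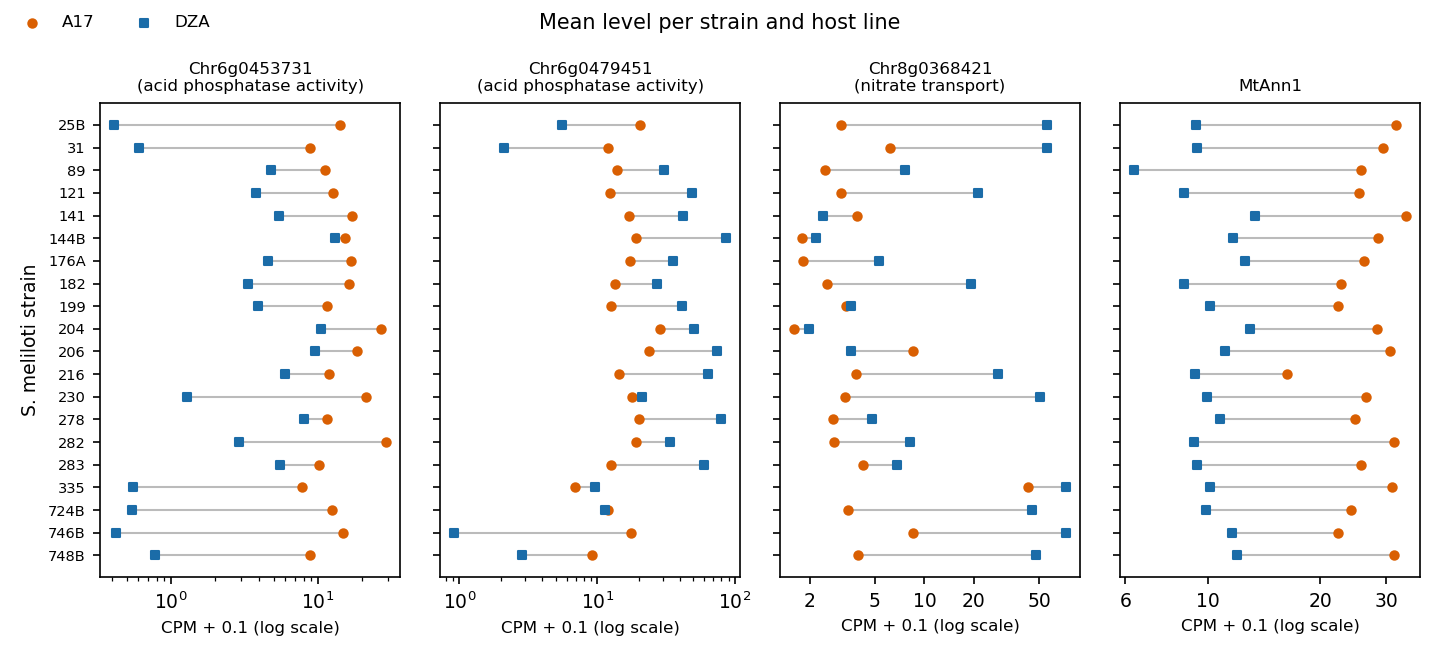
Mean level (CPM + 0.1, log scale) per strain in A17 (circles) and DZA (squares) for 4 genes, with strains as rows and a grey line joining the 2 lines. The gap of MtAnn1 points the same way in all 20 rows, whereas that of MtrunA17_Chr6g0479451 turns over in 5 rows.

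Over all 37658 genes tested for an interaction, 310 (0.823%) were called. The symbiosis and gene ontology lists held 9 of these. MtMATE69 was the only call among the 59 genes with a symbol. The others were among the 61 ontology genes tested, and 4 of them carry the term acid phosphatase activity. This term holds 15 of the 61 ontology genes. The study took the terms from gene modules that followed plant biomass over strains in DZA. A dependence on strain among their members is therefore not independent of that choice. MtrunA17_Chr6g0479451, which carries the terms acid phosphatase activity and ferric iron binding, had an interaction at an adjusted p of 1.7e-12. Its average difference did not pass on the sums per strain (0.58 ± 0.42, adjusted p = 0.25). By edgeR with 1 value per plant, as in the interaction test, it passed (0.70, adjusted p = 0.0014), and so it did without the strain block (1.05, adjusted p = 0.012). It did not pass in the other 37 of 39 alternatives. With strain 746B the 4 DZA plants were at 0.736, 0.744, 0.778 and 0.988 CPM and the 4 A17 plants at 10.7, 14.4, 15.9 and 28.8 CPM. Strains 746B and 283 were the ends of the range of this gene, so they are given as a description. With strain 283 the order was reversed without overlap, with DZA plants at 44.5, 54.4, 63.9 and 75.7 CPM and A17 plants at 7.50, 7.52, 14.4 and 20.9 CPM.

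MtrunA17_Chr6g0453731, the acid phosphatase gene that was higher in A17 with every strain, had an interaction at an adjusted p of 5.9e-09 although the direction was shared. With strain 144B it was at 15.2 CPM in A17 and 13 CPM in DZA. With strain 746B the 4 DZA plants were at 0.236, 0.240, 0.276 and 0.548 CPM and the A17 plants at 9.99 to 19.7 CPM. DZA means under 1 CPM were also found with 25B (0.31 CPM), 31 (0.506 CPM), 335 (0.449 CPM), 724B (0.445 CPM) and 748B (0.68 CPM), while the lowest A17 mean of any strain was 7.68 CPM, with 335.

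The nitrate transporter gene MtrunA17_Chr8g0368421 (interaction adjusted p = 2.6e-09) was at 2.99 CPM in A17 and 55.9 CPM in DZA with strain 25B, and at 8.44 CPM in A17 and 3.48 CPM in DZA with strain 206. Strain 335 was the exception in A17, at 42.8 CPM, where every other A17 mean was at 8.44 CPM or less. In DZA, strains 25B, 31, 230, 335, 724B, 746B and 748B were each between 45.1 and 72.9 CPM, and the other 13 strains between 1.88 and 27.9 CPM.

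Of the 4 unnamed genes with the smallest interaction p, MtrunA17_Chr1g0186601 was at 29.0 to 58.6 CPM in the 4 A17 plants with strain 746B and at 0.153 to 0.939 CPM in the 4 DZA plants, and with strain 141 the plants of the 2 lines overlapped (19.8 to 49.3 and 11.2 to 50.2 CPM). MtrunA17_Chr3g0135101 was at 32.5 to 69.0 CPM in DZA with strain 206 and at 0.584 to 1.34 CPM in A17. Of the 59 symbiosis genes with a symbol, MtMATE69, of a transporter family that exports organic acids and other compounds, was the one with an interaction past the threshold (adjusted p = 0.0063). With strain 25B it was at 2.26, 3.67, 5.16 and 6.43 CPM in the A17 plants and at 1.09, 1.71, 1.79 and 2.35 CPM in the DZA plants. With strain 199 the A17 plants were at 3.05 to 3.91 CPM and the DZA plants at 3.85 to 17.7 CPM. MtAnn1, MtMTP2, MtRbohG, MtPT5, MtVAMP721d and MtNPD1, whose direction was the same with all 20 strains, had interactions at adjusted p of 1. The apyrase gene, also of the same direction with all 20, had one at 0.885. A shared direction could hold a gap near 0, as for MtNPD1 with strain 182 (170.3 CPM in A17 and 169.9 CPM in DZA).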

How the data were processed

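Samples were grouped by the line in their labels, and strains by the strain in their labels. The authors deposited expected counts per gene, which are estimated by Salmon 1.4.0 against a combined index of M. truncatula A17 (release 5.0) and a S. meliloti reference strain and imported with tximport, from stranded libraries of polyadenylated RNA pooled on 1 sequencer lane. No batch is labelled. The counts were rounded and the plant genes kept. The plants of a strain and line were summed, which gave 40 sums, and a gene was tested where 4 or more sums held 10 counts or more, with edgeR 4.0.16 (quasi-likelihood, robust, TMM on plant genes, strain as block, Benjamini-Hochberg adjustment over all genes tested). The strain block is the study's own pairing: the same strain was used on both lines. The line-by-strain interaction was fitted with edgeR on 79 libraries per line. Shares were compared with paired sign-change permutation tests over 20 strains (100000 resamples, two-sided). Plants are the replicates within a strain, and each line is 1 inbred genotype. By expression, strains 282 and 283 have nearly the same accessory genes (2 differences in 625), as do 182 and 89 (4). The study reports that the genomes of 282 and 283 are identical, so the 20 strains are not fully independent. Without strains 283 and 89, 9996 genes were called higher in DZA and 11015 higher in A17.

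Members and lists were chosen with earlier results of these data known. Symbols, gene ontology terms and product names came from the study's supplement, which pairs them with gene identifiers, and most identifiers have none. Genes named in the text were up to 4 per list with the largest change among those called with 1 direction in at least 18 strains, up to 2 not called, the largest named changes shared by 20 strains at 10 CPM or more, up to 2 unnamed genes per direction, the 6 smallest interaction p and the nodule markers. Other members of the lists, genes with copies and the ends of runs were named after their values were seen. The 20 libraries that stand apart were defined by over 100 CPM of 1 plant gene after the data were seen, as were the alternatives that leave out these, the 5 mixed or the 1 S. meliloti-rich library, and the alternative dispersion method of edgeR. Other alternatives were scaling (DESeq2 1.42.0 and 2 plain sums), filters, limma 3.58.1, no block, a covariate for S. meliloti counts, and each strain or plant left out. On simulated counts of 39098 genes, 100% of line differences of 1 and 38% of those of 0.5 on the log2 scale were recovered. Among 144 calls, 6 were false. Of interactions of 2 on the log2 scale, set in part of the strains, 99% were recovered among 7643 genes, with 9 false among 207 calls. The simulated counts had a fixed spread shared by all genes, changes only in genes with ample counts, and no libraries that stand apart or are mixed. They therefore do not give the error rates of the real calls.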

Additional observations from a re-analysis of the deposited data

Results flagged for a closer look

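For 13 genes the difference between A17 and DZA depended on the strain, by an edgeR quasi-likelihood F test of the 19 interaction terms on 79 libraries per line. They are the 6 genes with the smallest p and every further member of the symbiosis and gene ontology lists past the threshold. The 6 were MtrunA17_Chr1g0186601 (adjusted p = 1.09e-14), MtrunA17_Chr4g0012511 (5.47e-13), MtrunA17_Chr6g0479451 (1.68e-12), MtrunA17_Chr1g0179831 (1.14e-11), MtrunA17_Chr8g0368421 (2.57e-09) and MtrunA17_Chr3g0135101 (3.63e-09). Each of these 6, and MtrunA17_Chr6g0453731, kept an adjusted p under 0.05 in all 11 alternatives, with highest values of 7.2e-07, 1.5e-05, 1.0e-05, 5.7e-05, 0.0049, 5.3e-04 and 1.6e-04 in that order.

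MtrunA17_Chr4g0012511 was at 43.5 to 107 CPM in the DZA plants with strain 724B and at 8.28 to 16.0 CPM in the A17 plants, while with strain 144B it was at 0.567 to 1.13 CPM in DZA and at 3.15 to 8.45 CPM in A17. MtrunA17_Chr1g0179831 was at 50.6 to 131 CPM in DZA and 5.98 to 24.9 CPM in A17 with strain 144B, and at 0.122 to 0.645 CPM in DZA and 7.47 to 24.7 CPM in A17 with strain 746B. The strains of both genes were picked for their extreme differences.

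The list members were the acid phosphatase genes MtrunA17_Chr6g0453731 (adjusted p = 5.87e-09), MtrunA17_Chr8g0375821 (6.98e-05) and MtrunA17_Chr5g0419621 (0.000137), the peroxidase gene MtrunA17_Chr8g0392711 (0.000105), MtMATE69 (MtrunA17_Chr3g0088471, 0.0063) and the systemic acquired resistance genes MtrunA17_Chr7g0240451 (0.00926) and MtrunA17_Chr7g0240471 (0.0162). The peroxidase gene kept its call in 10 of 11 alternatives. MtrunA17_Chr7g0240471 kept it in 5 of 11 and lost it without the 20 libraries that stood apart (adjusted p = 0.062).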

How the results depend on the processing

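The balance of calls depended on the scaling. DESeq2 called 13014 genes higher in DZA and 11736 higher in A17, the plain sum without the 20 largest rows 11534 and 10817, the plain sum 9229 and 11724, and the fit with 1 value per plant 10106 and 9738, so that more genes were higher in DZA in all of these but the plain sum, against 10520 and 11765. The cause was not tested. For the 88 genes picked by the naming rule, 39 alternatives gave 3432 values. No gene that was called reversed its direction, 3 values fell short of the threshold and 99 newly passed it. The 3 were MtCBS1 without plant 2 or without plant 3 and the chlorophyll a-b binding gene MtrunA17_Chr5g0447531 with limma. Genes that were not called could change sign, such as MtNCR169 (MtrunA17_Chr7g0229931), from -0.42 to 0.080. Genes named outside that rule, such as MtGbeta1, are not among the 88. Genes called higher in DZA ranged from 8878 to 9938 and in A17 from 9910 to 11212 with 1 plant per strain left out, and from 10039 to 10828 and 11322 to 11884 with 1 strain left out. At least 2-fold calls ranged from 4069 to 4647 and 4795 to 5130, and from 4047 to 4619 and 5121 to 5247. Without the strain block, 11601 and 11858 genes were called. The median log2 fold change lay between 0.030 and 0.11 over the scalings. No paired analysis was possible by plant number because the numbers name single plants and do not match plants across lines.

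The interaction count of 310 moved to 101 with the plain sum of plant counts and to 594 with the other edgeR dispersion method, and to 57 to 274 with 1 plant left out. The cause was not tested. Without the 10 largest plant rows, the plastid share differed by -0.2039 percentage points (p = 0.083) and the mitochondrial share by -0.3568 (p = 0.082). With 1 plant left out they ranged from -0.1789 to -0.1462 and from -0.3271 to -0.248, and the S. meliloti share from 1.698 to 6.169. Genes nearly silent in A17 numbered 0 at 0.05 CPM, 9 at 0.2 CPM and 7 without the 20 libraries that stood apart, against 4. Of genes under 1 CPM, 43.7% were called, against 61.8% at 10 to 100 CPM, and the part of depth in this was not tested.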
